A study of Mus musculus with 10 samples.

Results

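The IL-17A response of Bcl10 knockout mouse keratinocytes was read from 4 of the 10 RNA-seq libraries of the series, chosen by their labels alone. They were 2 IL-17A-treated and 2 unstimulated libraries labelled Bcl10-/-. The main fit compares group means, and changes within the same replicate number are described beside it. Another 3 IL-17A-treated and 3 unstimulated libraries were labelled Bcl10+/- and came from littermates, so these controls also carried a mutant copy. The allele was Bcl10tm1Mak in both genotypes, and no source used here gives the part of the gene that it removes. All cells were primary keratinocytes grown from pup skin taken at postnatal days 4 to 5 and kept in 0.05 mM calcium chloride. Treated cells had received recombinant mouse IL-17A at 200 ng/mL for 5 h. Libraries with the same genotype label and number are called a culture. Nothing in the labels ties a number to a separate pup, litter or well, so a p-value here reflects only how far these libraries lie apart, part of which may be technical.

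Keratinocytes are the main cells of the epidermis and a main target of IL-17A, a cytokine of T cells that is known for its part in psoriasis and in defence against fungi and bacteria. IL-17A binds a receptor of IL-17RA and IL-17RC, which recruits the adaptor ACT1 and TRAF proteins, and the signal reaches NF-kB, C/EBP and MAP kinase pathways and also lengthens the life of target mRNAs. Typical targets in skin are neutrophil-attracting chemokines, antimicrobial proteins and the regulators IkB-zeta and Regnase-1. BCL10 is the adaptor that joins CARD-family scaffold proteins to the protease MALT1 upstream of NF-kB, and the comparison asks which genes respond to IL-17A in cells labelled as lacking it.

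Values are FPKM, fragments per kilobase of gene model scaled to the mapped fragments of the library, and changes are on the log2(FPKM + 1) scale, on which genes near or below 1 FPKM change less than their ratio. The estimated depth was 50.8 and 16.1 M fragments in IL-17A-treated cultures 1 and 2, against 19.6 and 21.9 M in the unstimulated ones, so that 3 fragments in a gene of 1 kb equal 0.059 to 0.186 FPKM. Krt5, the basal keratin, stood at 6369 and 5753 FPKM with IL-17A, against 5842 and 5743 FPKM unstimulated. All 11 keratinocyte markers were measured above the filter. The 8 fibroblast markers summed to 1.68 FPKM with IL-17A and 1.41 FPKM unstimulated in culture 1, and to 39.0 and 39.4 FPKM in culture 2, so they differed between cultures and not with treatment. The 8 melanocyte markers summed to 184 and 172 FPKM in treated cultures 1 and 2, and to 186 and 178 FPKM in the unstimulated ones. The leukocyte markers Ptprc, Cd3e and Itgam were listed at 0 in all 4 libraries. Cd68 was 8.29 and 8.68 FPKM in treated libraries and 7.79 and 9.35 FPKM in unstimulated ones. Whether fewer cells of a type or less RNA per cell lies behind a level cannot be told apart in bulk samples.

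Bcl10 itself (ENSMUSG00000028191) did not follow the labels in every library. In the libraries labelled knockout it was 16.4 and 16.6 FPKM with IL-17A, against 0.969 and 17 FPKM unstimulated, in cultures 1 and 2. In those labelled heterozygous it was 16.3, 72.3 and 60.6 FPKM with IL-17A, against 18, 67.0 and 59.5 FPKM unstimulated. Heterozygous culture 1 therefore stood at the level of the knockout-labelled libraries, against its label, and unstimulated knockout culture 1 stood apart from the other 3 knockout-labelled libraries. That library also had 12.6% of its summed FPKM in its 10 highest genes, against 8.21% to 8.66% in the other 9 libraries. Calls that are lost or gained without these libraries are given below.

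Among the 12054 genes that averaged 1 FPKM or more over the 10 libraries, 1 rose with IL-17A in the knockout-labelled libraries (0.0083% of genes tested) and 2 fell (0.0166%), at an adjusted p under 0.05 in limma with Benjamini-Hochberg adjustment. The gene that rose was Sprr2e, and those that fell were Lsm12 and Kbtbd4. At an unadjusted p under 0.05 there were 91 higher genes (0.755%) and 85 lower genes (0.705%). With replicate number as a block, which sets each treated library against the unstimulated library of its culture, 0 genes passed in either direction in limma, with 355 higher (2.95%) and 252 lower (2.09%) under an unadjusted p of 0.05. With culture as a random effect, limma called 8 higher genes (0.0664%) and 6 lower genes (0.0498%). The 8 were Sprr2e, Sprr2g, Slc5a1, Cebpd, Nfkbiz, Zc3h12a, Lipt1 and Il1f5, and the 6 were Lsm12, Kbtbd4, Dusp3, Srsf1, Uck1 and Snord100. Without unstimulated knockout culture 1, limma called none of the 3 genes above, and it called Gm10913 and Gm12992 higher and Snord78 lower, the last 2 also for the difference from the heterozygous-labelled response. Without both libraries of heterozygous culture 1 it called Sprr2e higher and Lsm12 and Gm20656 lower. These added genes were named after their values were seen.

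Sprr2e (ENSMUSG00000055030; GRCm38 chr3:92352143-92353449, plus strand) encodes a small proline-rich protein that is cross-linked into the cornified envelope of the outer epidermis. It stood at 20.9 and 21.3 FPKM in the IL-17A-treated libraries, against 5.73 and 6.64 FPKM in the unstimulated ones. Both treated libraries lay well above both unstimulated ones, and the 2 libraries of each condition were close to each other. The means were 21.1 ± 0.324 FPKM with IL-17A and 6.19 ± 0.641 FPKM unstimulated (SD, n = 2 each), a 3.08-fold difference (log2 1.62, SE 0.13, limma adjusted p = 0.00944). With replicate number as a block its adjusted p was 0.0918. Without unstimulated culture 1 it was 0.0567, and without IL-17A-treated culture 1 it was 0.0547. It was 0.0673 when only the 4 knockout-labelled libraries were fitted, and 0.13 without both libraries of heterozygous culture 3. Over all alternatives it ran between 0.000394 and 0.29, and it passed in 18 of 25.

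**Figure D1:**
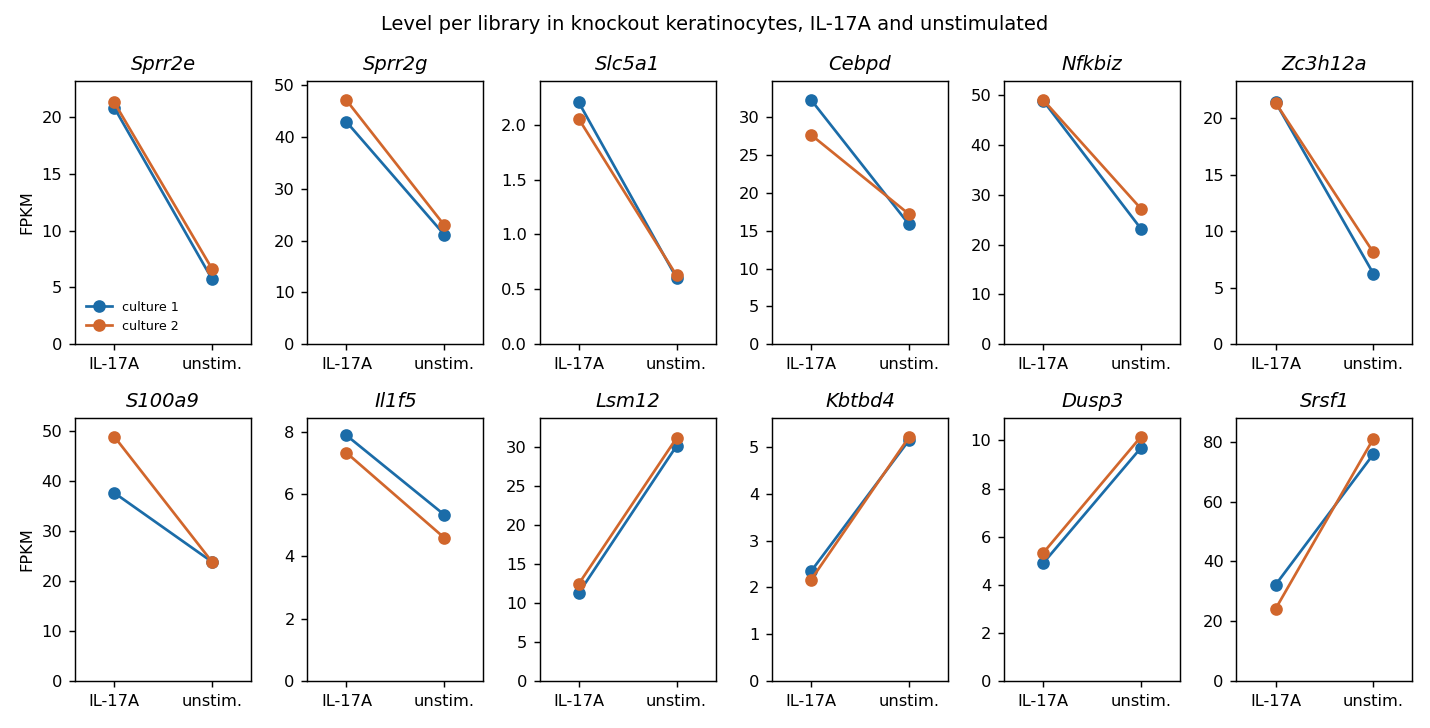
FPKM (vertical axes, linear from 0) of 12 genes in the knockout-labelled libraries, IL-17A-treated at left and unstimulated at right in each panel, with lines joining the libraries of culture 1 (blue) and culture 2 (orange). In each of the 8 genes from Sprr2e to Il1f5 both treated libraries lie above both unstimulated ones, and in Lsm12, Kbtbd4, Dusp3 and Srsf1 both lie below. Of all genes tested, 13% lie above in this way and 13.5% below.

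Promoter windows of genes from the response are shown so that the sequence around the start of the called gene can be read beside those of a regulator, an antimicrobial gene and a chemokine. Each window runs from 250 bases before to 50 bases after the RefSeq start (GRCm38.p6), 5′ to 3′ on the gene's own strand, in lower case with motif matches in capitals. Motifs searched on both strands were AP-1 (TGANTCA, in 7.81% of 32851 promoter windows), C/EBP (TTGCNNNAA, 9.56%), the TATA box (TATAAA, 13.6%) and the NF-kB motif (4.51%). The windows lie at chr3:92351893-92352192 on the plus strand for Sprr2e, chr4:125127832-125128131 on the minus strand for Zc3h12a, chr3:90695672-90695971 on the minus strand for S100a9 and chr5:90890995-90891294 on the plus strand for Cxcl1.
Sprr2e: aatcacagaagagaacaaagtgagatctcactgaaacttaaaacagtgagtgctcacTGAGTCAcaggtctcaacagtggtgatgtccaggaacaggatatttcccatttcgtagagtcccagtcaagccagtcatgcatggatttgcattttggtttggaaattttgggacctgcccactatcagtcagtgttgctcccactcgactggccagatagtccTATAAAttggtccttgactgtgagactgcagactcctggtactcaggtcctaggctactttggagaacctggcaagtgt
Zc3h12a: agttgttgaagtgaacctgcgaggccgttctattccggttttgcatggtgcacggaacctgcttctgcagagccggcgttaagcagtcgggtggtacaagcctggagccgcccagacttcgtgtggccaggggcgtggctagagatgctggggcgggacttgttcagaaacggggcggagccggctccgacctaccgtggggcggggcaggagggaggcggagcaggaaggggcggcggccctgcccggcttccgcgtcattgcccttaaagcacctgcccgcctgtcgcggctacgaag
S100a9: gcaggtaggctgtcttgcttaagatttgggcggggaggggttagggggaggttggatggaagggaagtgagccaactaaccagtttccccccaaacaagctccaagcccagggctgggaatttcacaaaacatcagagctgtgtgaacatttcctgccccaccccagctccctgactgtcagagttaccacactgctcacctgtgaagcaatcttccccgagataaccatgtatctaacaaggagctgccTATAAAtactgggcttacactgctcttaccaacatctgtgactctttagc
Cxcl1: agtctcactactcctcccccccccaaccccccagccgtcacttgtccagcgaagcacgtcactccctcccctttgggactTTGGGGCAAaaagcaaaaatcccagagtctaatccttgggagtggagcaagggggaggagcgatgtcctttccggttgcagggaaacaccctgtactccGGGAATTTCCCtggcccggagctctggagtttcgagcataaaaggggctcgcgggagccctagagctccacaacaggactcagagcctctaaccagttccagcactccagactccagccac
The Sprr2e window held an AP-1 match that begins 193 bases upstream of the start and a TATA box 29 bases upstream. The Cxcl1 window held a C/EBP match 170 bases upstream and overlapping NF-kB matches 71 and 70 bases upstream. The S100a9 window held a TATA box at the annotated start, and these letters were not found in the Zc3h12a window. A match is a description of the letters only.

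Other cornified envelope genes of the same cluster on chromosome 3 stood higher with IL-17A without passing the test. Of 20 tested Sprr and Lce3 genes, from a list of 22, 1 rose and 0 fell, 15 were higher in both cultures, where 23.4% of all genes tested were, and 0 were lower in both. Their median change was 0.56, beside -0.000527 over all genes tested. Sprr2g was 42.9 and 47.1 FPKM with IL-17A, against 21.2 and 23.0 FPKM unstimulated (log2 1.00, limma adjusted p = 0.182, and 0.0396 without heterozygous IL-17A culture 1). Sprr2g passed in only 2 of 25 alternatives. Sprr2d was 34.9 and 38.8 FPKM with IL-17A, against 12.7 and 13.4 FPKM unstimulated, and Sprr2i was 17.5 and 13.9 FPKM, against 6.98 and 5.23 FPKM. None of these groups overlapped, and the changes of Sprr2d and Sprr2i were 1.43 and 1.24. Sprr2f, at a lower level, was 2.80 and 2.75 FPKM with IL-17A, against 0.337 and 0.757 FPKM unstimulated. Among Lce3 genes, which encode late envelope proteins, Lce3b was 3.60 and 3.23 FPKM with IL-17A, against 1.74 and 0.966 FPKM unstimulated (log2 0.93), and Lce3f was 11.3 and 12 FPKM, against 6.49 and 5.41 FPKM (log2 0.87). In all, 14 of the 20 had both treated libraries above both unstimulated ones, where 13% of all genes tested did. With the replicate block 13 were higher at an unadjusted p under 0.05, where 2.95% of all genes tested were. Without it 6 were, where 0.755% of all genes tested were. The members outside these 14 include Sprr1a and Sprr2a1. Sprr1a was 196 and 198 FPKM with IL-17A, against 203 and 198 FPKM unstimulated, and Sprr2a1 was 60.0 and 33.5 FPKM, against 55.2 and 34.0 FPKM, a difference between cultures rather than between conditions. Reads shared between the near-identical Sprr2 genes may have been divided among them, so these single values are uncertain. The members are then not separate observations, and the counts above only describe the list.

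The receptor and its adaptor were detected in all 4 libraries, with small differences. Il17ra, the shared receptor chain, was 5.26 and 5.22 FPKM with IL-17A, against 5.39 and 5.70 FPKM unstimulated. Il17rc, its partner chain, was 12.8 and 8.80 FPKM, against 9.68 and 10.2 FPKM. Traf3ip2, which encodes ACT1, was 14.1 and 15.2 FPKM, against 12 and 13.5 FPKM. Of 20 tested genes of proximal IL-17 receptor signalling, 0 passed in limma in either direction, and their median change was 0.01. At an unadjusted p under 0.05, 0 were higher and 2 lower, where 0.755% and 0.705% of all genes tested were. With the replicate block 2 were higher, Traf3ip2 and Ikbke, and 2 lower, where 2.95% and 2.09% of all genes tested were. The 2 lower genes were the same in both fits. They were Chuk, an IkB kinase subunit, at 11.6 and 12.6 FPKM with IL-17A, against 15.6 and 14.3 FPKM unstimulated, and Srsf1, described with the lower genes.

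Among regulators that act downstream of the receptor, 4 stood higher at an unadjusted p under 0.05 and 0 of 23 tested passed in limma. Of all genes tested, 0.755% stood higher at that p. Zc3h12a (ENSMUSG00000042677) encodes Regnase-1, an RNase that degrades inflammatory mRNAs, and was 21.4 and 21.4 FPKM with IL-17A, against 6.25 and 8.12 FPKM unstimulated. The means were 21.4 ± 0.0271 and 7.18 ± 1.32 FPKM (SD, n = 2 each), and the groups did not overlap. The change was 1.46, SE 0.29, 2.75-fold (limma adjusted p = 0.697, and 0.0184 with culture as a random effect). Zc3h12a passed in only that 1 of 25 alternatives. Nfkbiz encodes IkB-zeta, a nuclear cofactor that NF-kB needs at a subset of its targets, and was 48.9 and 49.1 FPKM with IL-17A, against 23.2 and 27.2 FPKM unstimulated (log2 0.94, SE 0.17, adjusted p = 0.441). Cebpd, a C/EBP transcription factor, was 32.3 and 27.7 FPKM, against 15.9 and 17.2 FPKM (log2 0.82, adjusted p = 0.311). Bcl3, another nuclear IkB protein, was 3.52 and 4.51 FPKM, against 1.95 and 2.78 FPKM (log2 0.58). In all 4 genes both treated libraries lay above both unstimulated ones, as they did in 13% of all genes tested. Zc3h12a and Nfkbiz are also on the list of the CARD-BCL10-MALT1 complex and MALT1 substrates, where 0 of 13 tested genes passed in limma in either direction. These 2 were its only members higher at an unadjusted p under 0.05, where 0.755% of all genes tested were.

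Other NF-kB and C/EBP genes gave smaller differences, and not all in the same direction. Nfkbia, which encodes the inhibitor IkB-alpha, was 91.8 and 90.5 FPKM with IL-17A, against 80.0 and 83.9 FPKM unstimulated (log2 0.15). Tnfaip3, which encodes the deubiquitinase A20, was 2.28 and 3.52 FPKM, against 3.61 and 4.16 FPKM (log2 -0.34). Cebpb was 50.1 and 48.1 FPKM, against 34.3 and 47.4 FPKM, so that the treated libraries lay close to unstimulated culture 2 and apart from culture 1. Malt1 was 4.62 and 4.67 FPKM with IL-17A, against 4.89 and 5.26 FPKM unstimulated. Over the 23 regulators, 13 were higher in both cultures and 3 lower in both, where 23.4% of all genes tested were higher and 23.4% lower, with a median change of 0.14. With the replicate block 8 were higher at an unadjusted p under 0.05, where 2.95% of all genes tested were, and 0 passed in limma.

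**Figure D2:**
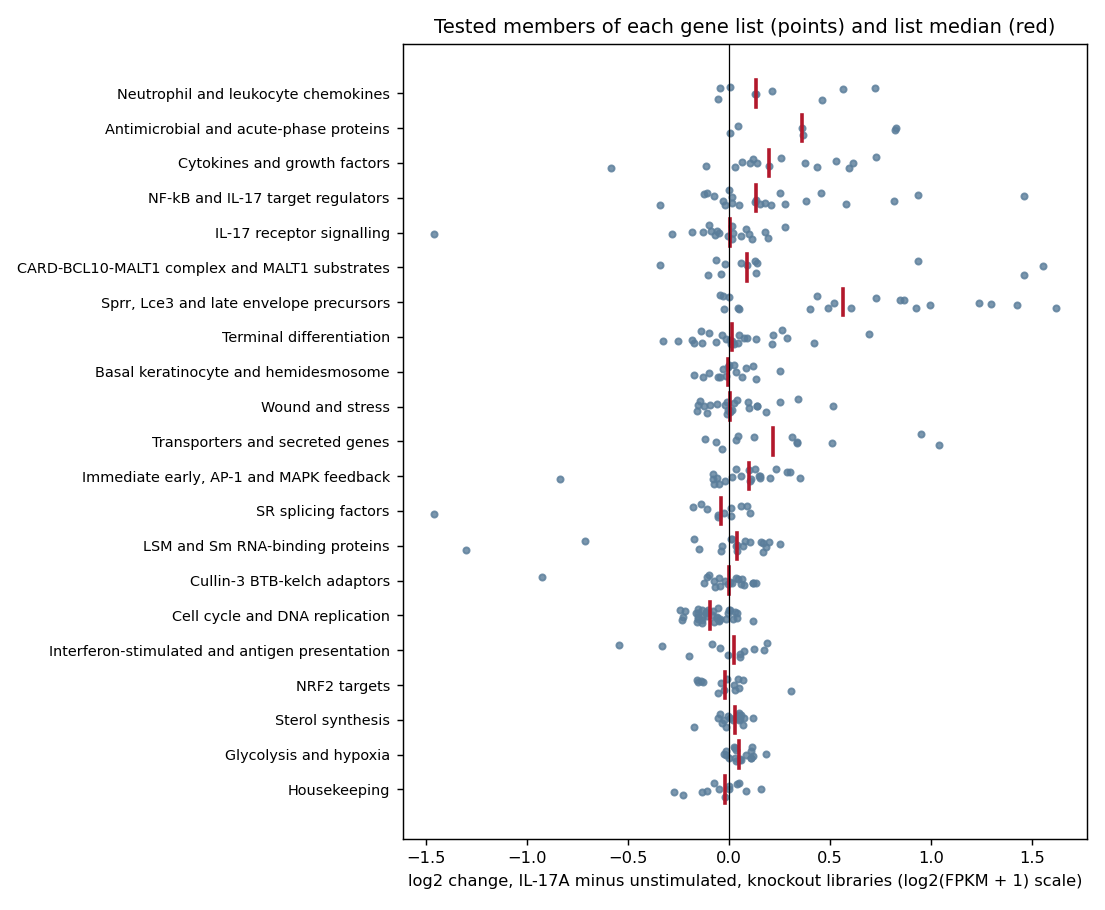
Change with IL-17A in the knockout-labelled libraries (horizontal axis, IL-17A minus unstimulated on the log2(FPKM + 1) scale) for tested members of 21 gene lists. Points are genes, red bars are list medians and the vertical line is the median of all genes tested; the Sprr and Lce3 list lies farthest right, with a median of 0.56, and cell cycle genes lie left, with a median of -0.09.

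The antimicrobial genes most often linked to IL-17A in skin were few at this level of expression. Of 18 genes found in the table, 6 passed the filter and 12 did not. S100a9 and S100a8 encode the 2 subunits of calprotectin, a metal-binding antimicrobial protein. S100a9 was 37.6 and 48.9 FPKM with IL-17A, against 23.8 and 23.8 FPKM unstimulated (log2 0.82, SE 0.21, limma adjusted p = 1.00). S100a8 was 54.0 and 55.1 FPKM, against 30.9 and 29.6 FPKM (log2 0.83, SE 0.29). Treated libraries lay above unstimulated ones in both genes, as they did in 13% of all genes tested, and neither passed. S100a9 and S100a8 were the 2 antimicrobial genes under an unadjusted p of 0.05, and 0 of 6 passed in limma in either direction. Of all genes tested, 0.755% were higher at that p. With the replicate block 3 were higher at that p, S100a8, S100a9 and Slpi, where 2.95% of all genes tested were, and 0 passed. Slpi, a protease inhibitor, was 23.7 and 18.8 FPKM, against 17 and 15.3 FPKM. Defb14, a beta-defensin, was 24.2 and 42.5 FPKM, against 24.8 and 24.8 FPKM, so only culture 2 was higher. Lcn2, a siderophore-binding protein, stayed below the filter at 0.705 and 0.477 FPKM, against 0.580 and 0.470 FPKM, and Saa1, Reg3g and Camp were listed at 0 in all 4 libraries.

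The neutrophil-attracting chemokines had larger changes in some cultures than in others. Cxcl1 was 506 and 618 FPKM with IL-17A, against 343 and 334 FPKM unstimulated (1.65-fold, log2 0.72, SE 0.51), so both treated libraries were higher. Cxcl2 was 9.53 and 15.7 FPKM, against 8.05 and 9.25 FPKM, with a change of 0.22 in culture 1 and 0.71 in culture 2. Cxcl5 was 4.87 and 17.3 FPKM, against 2.81 and 11.8 FPKM. Here the 2 cultures differed more than the conditions did, and the treated library of culture 1 lay below the unstimulated library of culture 2. Ccl20, which attracts CCR6-bearing T cells, was 0.735 and 1.97 FPKM, against 0.888 and 1.26 FPKM, lower in culture 1 and higher in culture 2. Ccl2 was 0.0867 and 12.8 FPKM, against 0.172 and 12.8 FPKM; it was present in the culture with fibroblast markers, in both conditions, and the part of other cells in this was not tested. Of 9 tested chemokine genes, 0 passed in limma in either direction and 0 had an unadjusted p under 0.05. In both cultures 5 were higher and 1 lower, where 23.4% of all genes tested were higher and 23.4% lower. Their median change was 0.14. With the replicate block, which takes out differences between cultures, Cxcl1 alone was under an unadjusted p of 0.05, and 0 of 9 passed in limma.

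Cytokine genes gave 12 of 15 tested members higher in both cultures and 2 lower in both, where 23.4% of all genes tested were higher and 23.4% lower. The list had a median change of 0.20 and 0 calls in limma. With the replicate block 5 were higher at an unadjusted p under 0.05, where 2.95% of all genes tested were. Without it 2 were higher, where 0.755% were. The 2 belong to the IL-36 group. Il1f5, the IL-36 receptor antagonist, was 7.88 and 7.32 FPKM with IL-17A, against 5.33 and 4.59 FPKM unstimulated (log2 0.53, limma adjusted p = 1.00, and 0.0473 with culture as a random effect). It passed in only that 1 of 25 alternatives. Il1f9, which encodes IL-36 gamma, was 8.25 and 7.87 FPKM, against 6.35 and 5.08 FPKM (log2 0.44). Colony-stimulating factors of granulocytes stood higher without overlap, as 13% of all genes tested did. Csf2 was 1.28 and 2.12 FPKM, against 0.639 and 0.575 FPKM, and Csf3 was 3.10 and 4.40 FPKM, against 1.62 and 2.60 FPKM. Il1rn, the IL-1 receptor antagonist, was lower in both cultures, at 1.52 and 2.50 FPKM with IL-17A, against 3.31 and 3.59 FPKM unstimulated (log2 -0.58, SE 0.36). Il6 was listed at 0 in both treated libraries, against 0 and 0.085 FPKM unstimulated, and Il19 stayed below the filter.

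Transporter genes completed the higher group. Slc5a1, a sodium-coupled glucose transporter, was 2.20 and 2.05 FPKM with IL-17A, against 0.604 and 0.626 FPKM unstimulated (log2 0.95, SE 0.16, limma adjusted p = 0.28, and 0.00448 with culture as a random effect). It passed in only that 1 of 24 alternatives. Slc6a14, an amino acid transporter, was 8.49 and 9.85 FPKM, against 3.91 and 3.95 FPKM (log2 1.04). The spread within each condition was small beside the difference in both genes, but Slc6a14 was tested against a spread that includes the heterozygous-labelled libraries, and its SE was 0.62. The gap junction gene Gjb6 was 1.67 and 2.43 FPKM, against 1.02 and 1.22 FPKM, and the divalent metal transporter Slc11a2 was 12.2 and 12.8 FPKM, against 9.39 and 10.4 FPKM. Of 12 tested transporter and secreted genes, 7 were higher in both cultures, where 23.4% of all genes tested were. The list was chosen with earlier results of these data known, so its counts are a description only. None passed in limma in either direction, with 4 higher at an unadjusted p under 0.05, where 0.755% of all genes tested were. With the replicate block 6 were higher at that p, where 2.95% of all genes tested were, and 0 passed. Lipt1, a lipoyltransferase with no place on any list, was 2.12 and 2.16 FPKM, against 0.847 and 1.02 FPKM (log2 0.70).

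The 2 genes that fell had no counterpart among the genes above. Lsm12 (ENSMUSG00000020922; chr11:102162497-102185296, minus strand) encodes an RNA-binding protein of the LSm family and was 11.3 and 12.4 FPKM with IL-17A, against 30.1 and 31.1 FPKM unstimulated. Treated and unstimulated libraries lay far apart, with means of 11.8 ± 0.831 and 30.6 ± 0.719 FPKM (SD, n = 2 each), a change of -1.30 (SE 0.12, limma adjusted p = 0.0114). Its adjusted p was 0.0689 with replicate number as a block, 0.0799 without unstimulated knockout culture 1, 0.0796 without unstimulated knockout culture 2, 0.0547 without IL-17A-treated knockout culture 1 and 0.0551 without unstimulated heterozygous culture 3. Of the 20 tested LSm and Sm genes, 1 fell and 0 rose. In both cultures 9 were higher and 4 lower, where 23.4% of all genes tested were higher and 23.4% lower. Lsm3, the only other member under an unadjusted p of 0.05, was 0.917 and 1.52 FPKM, against 3.33 and 2.01 FPKM.

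Kbtbd4 (ENSMUSG00000005505; chr2:90904740-90911626, plus strand) encodes a BTB-kelch protein of the family that serves as substrate adaptors of cullin-3 ubiquitin ligases. It was 2.34 and 2.16 FPKM with IL-17A, against 5.14 and 5.20 FPKM unstimulated. The groups were wide apart, with means of 2.25 ± 0.129 and 5.17 ± 0.0467 FPKM (SD, n = 2 each) and a change of -0.93 (SE 0.10, limma adjusted p = 0.0312). The adjusted p was 0.0918 with replicate number as a block, and it lay between 0.0512 and 0.189 without any single library other than heterozygous IL-17A culture 1, without which it was 0.0396. Without both libraries of heterozygous culture 1 it was 0.0575. Of 20 tested BTB-kelch genes, 1 fell and 0 rose, and the median change was 0.002.

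Lower genes that did not pass included regulators of signalling and splicing. Dusp3, a dual-specificity phosphatase that acts on MAP kinases, was 4.90 and 5.32 FPKM with IL-17A, against 9.70 and 10.2 FPKM unstimulated (log2 -0.84, SE 0.11, limma adjusted p = 0.0821). Uck1, a uridine-cytidine kinase, was 3.69 and 3.52 FPKM, against 6.48 and 7.14 FPKM (log2 -0.76, adjusted p = 0.199). Srsf1, a serine-arginine splicing factor, was 32.1 and 24.1 FPKM, against 75.9 and 81.0 FPKM (log2 -1.46, SE 0.21, limma adjusted p = 0.161, and 0.0281 without heterozygous IL-17A culture 1). Srsf1 passed in only 2 of 25 alternatives. In these 3 genes both treated libraries lay below both unstimulated ones, as they did in 13.5% of all genes tested. For Srsf1 the unstimulated knockout-labelled libraries stood above all 6 heterozygous-labelled libraries, which held 22.8, 31.4 and 36.2 FPKM with IL-17A and 37.5, 33.9 and 35.6 FPKM unstimulated. Of the 12 tested SR splicing factors, 2 were higher and 2 lower in both cultures, where 23.4% of all genes tested were higher and 23.4% lower. None passed in limma in either direction, and 1, Srsf1, was lower at an unadjusted p under 0.05. Tmsb4x, which encodes the actin-binding thymosin beta 4, was 486 and 502 FPKM, against 1060 and 904 FPKM (log2 -0.99, adjusted p = 1.00). Gm20656, a pseudogene, was listed at 0 in both treated libraries, against 4.99 and 4.77 FPKM unstimulated, and at 0 in 5 of the 6 heterozygous-labelled libraries. The exception was heterozygous IL-17A culture 1, at 4.22 FPKM, and without both libraries of that culture the adjusted p of Gm20656 in limma was 0.00165. That fit keeps only values of 0 outside the unstimulated knockout-labelled libraries, so the low p follows from which libraries were left out.

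Among programs of the keratinocyte itself, basal and differentiation genes had medians near 0, and cell cycle genes were slightly lower. Of 16 tested basal and hemidesmosome genes, 2 were higher and 4 lower in both cultures, with a median change of -0.002. Of 25 tested terminal differentiation genes, 9 were higher and 8 lower in both. Cnfn, a cornified envelope component, was the only differentiation gene under an unadjusted p of 0.05 in the main fit, at 46.9 and 51.4 FPKM with IL-17A, against 28.3 and 31.8 FPKM unstimulated (log2 0.69). Of 36 tested cell cycle and replication genes, 3 were higher and 22 lower in both cultures, where 23.4% of all genes tested were higher and 23.4% lower. In 11 of them both treated libraries lay below both unstimulated ones, where 13.5% of all genes tested did, with a median change of -0.09 over the list and a range of -0.24 to 0.12. The cyclin gene Ccne2 was 14.0 and 15.4 FPKM with IL-17A, against 18.8 and 16.1 FPKM unstimulated, and the mitotic kinase gene Aurkb was 13.6 and 14.4 FPKM, against 14.9 and 18.3 FPKM. In these basal, differentiation and cell cycle lists 0 genes passed in limma in either direction, and 1, Cnfn, had an unadjusted p under 0.05 in the main fit. With the replicate block Cnfn, Tgm1 and Grhl3 were higher at that p, and Itga3 and Aurkb were lower. Of all genes tested, 2.95% were higher and 2.09% lower at that p with the block. The median changes of interferon-stimulated (12 tested), NRF2 target (14), sterol synthesis (18) and glycolysis and hypoxia genes (19) were 0.03, -0.02, 0.03 and 0.05, also with 0 calls in limma and, in the main fit, 0 genes under an unadjusted p of 0.05. With the replicate block the NRF2 targets Srxn1, higher, and Hmox1, lower, were under it. Wound and stress genes (24 tested) had a median of 0.005, and immediate early and AP-1 genes (22 tested) had one of 0.10, with 0 calls in limma and, under an unadjusted p of 0.05 in the main fit, only Dusp3. With the replicate block the wound genes Plaur, Mmp9 and Stfa1 were higher at that p and Hmox1 lower. Among immediate early genes Fosl1 and Dusp4 were higher and Dusp3 lower.

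The 2 knockout-labelled cultures repeated each other in few genes. Across the 12054 genes the changes in culture 1 and culture 2 correlated at a Pearson r of 0.141 and a Spearman rho of -0.0449, as a description over genes, which are not independent. Both cultures were higher in 2822 genes and lower in 2823 genes, 23.4% each. Both treated libraries lay above both unstimulated ones in 1571 genes (13%) and below in 1624 genes (13.5%). The change was at least 1 in the same direction in both cultures for 12 higher genes (0.0996%) and 27 lower genes (0.224%), and at least 1 in opposite directions for 20 genes. In the 3 heterozygous-labelled cultures, a change of at least 1 in all of them was found for 6 higher genes (0.0498%) and 1 lower gene (0.0083%).

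**Figure D3:**
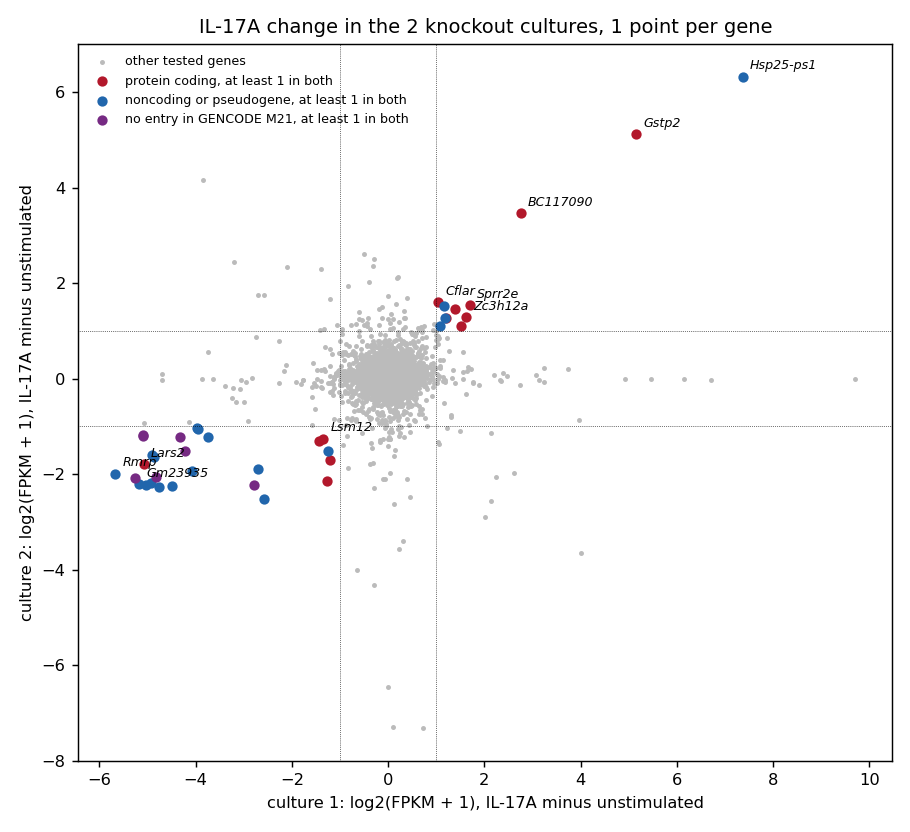
Change with IL-17A in knockout-labelled culture 1 (horizontal axis) against culture 2 (vertical axis), both on the log2(FPKM + 1) scale, with 1 point per gene tested and dotted lines at a change of 1 in either direction. Coloured points are the 12 higher and 27 lower genes past 1 in both cultures, by annotation class, and most genes lie near 0 in at least 1 culture.

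Of the 12 higher genes, 8 were protein coding and 4 were noncoding or pseudogenes. They were Zc3h12a and the Sprr2 genes Sprr2d, Sprr2e, Sprr2f and Sprr2i, the apoptosis regulator Cflar, Gstp2, BC117090, Gm14122, Gm14173, Gm25894 and Hsp25-ps1. Cflar was 12.3 and 14.0 FPKM with IL-17A, against 5.50 and 3.96 FPKM unstimulated, but in the heterozygous-labelled libraries it was 5.45, 16.3 and 15.5 FPKM with IL-17A, against 11.9, 15.2 and 5.37 FPKM unstimulated, with no common direction. Gstp2, a glutathione transferase, was 34.6 and 33.9 FPKM with IL-17A and listed at 0 in both unstimulated libraries. The other libraries split in the same all-or-none way, with 0, 41.0 and 40.6 FPKM in IL-17A-treated heterozygous-labelled libraries and 36.1, 0 and 38.9 FPKM in unstimulated ones. Its near-identical neighbour Gstp1 was 110 and 108 FPKM, against 105 and 106 FPKM, and no source used here says how reads were divided between them. A 0 in such a gene can be a failed estimate, so no fold is given. The pseudogene Hsp25-ps1 likewise was 165 and 79.0 FPKM with IL-17A and listed at 0 unstimulated.

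Among the 27 lower genes, 5 were protein coding, 15 were noncoding or pseudogenes and 7 had no entry in the annotation used. The 5 were Lsm12, Srsf1, Lars2, Mgat1 and Creb1. Creb1, a cAMP-responsive transcription factor, was 3.41 and 3.48 FPKM with IL-17A, against 11 and 10.0 FPKM unstimulated. Mgat1, a glycosyltransferase of N-glycan synthesis, was 1.73 and 1.56 FPKM, against 5.59 and 10.2 FPKM. Both genes also stood at a high level in single heterozygous-labelled libraries. Creb1 was 3.66, 4.18 and 4.23 FPKM with IL-17A and 3.85, 11.2 and 3.46 FPKM unstimulated there, and Mgat1 was 1.65, 9.16 and 1.44 FPKM, against 1.57, 1.63 and 8.86 FPKM.

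Most of the 27 lower genes were highest in 1 unstimulated library. In 20 of the 27, unstimulated culture 1 stood at least 1 above unstimulated culture 2, and of these 20, 13 were annotated as noncoding or pseudogenes, 6 had no entry in the annotation and 1, Lars2, was protein coding. They include Rmrp, Rpph1 and Rn7sk, short RNAs made by RNA polymerase III, and several predicted miRNA genes. Rpph1, the RNase P RNA, was 0.877 and 0.785 FPKM with IL-17A, against 53.5 and 4.61 FPKM unstimulated, and Rn7sk was 1.66 and 0.791 FPKM, against 78.1 and 4.41 FPKM. Gm23935, a predicted miRNA gene and the most abundant gene of unstimulated culture 1, was 321 and 196 FPKM, against 11549 and 906 FPKM. The 20 genes together summed to 870 and 550 FPKM with IL-17A, against 29627 and 2378 FPKM unstimulated. In the heterozygous-labelled libraries the sums were 1001, 957 and 745 FPKM with IL-17A, against 739, 760 and 6350 FPKM unstimulated, and 19 of the 20 genes were also lower by at least 1 in heterozygous culture 3. The high sums of the unstimulated knockout-labelled libraries follow from how the 20 genes were chosen. Of the heterozygous-labelled cultures, which the choice did not use, culture 3 had a higher unstimulated sum and cultures 1 and 2 did not. Libraries were made by poly(A) selection, per the labels' protocols, and the part of library preparation in these levels was not tested.

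**Figure D4:**
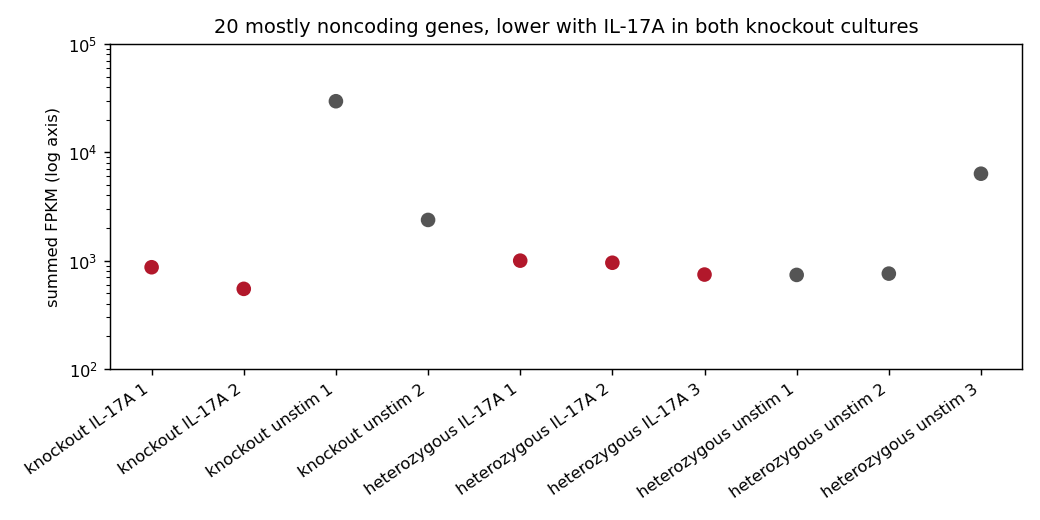
Summed FPKM (log axis) of the 20 mostly noncoding genes in each library, with IL-17A-treated libraries in red and unstimulated ones in grey, knockout-labelled at left. The unstimulated libraries of knockout culture 1 (29627 FPKM), heterozygous culture 3 (6350 FPKM) and knockout culture 2 (2378 FPKM) stand above the other 7, which lie between 550 and 1001 FPKM.

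The response was then set against that of the heterozygous-labelled libraries, in which limma called 1 higher gene (0.0083%), also Sprr2e, and 0 lower genes (0%). Under an unadjusted p of 0.05 there were 98 higher (0.813%) and 64 lower (0.531%), and with the replicate block 388 (3.22%) and 447 (3.71%), of which 0 passed. With culture as a random effect 14 higher genes (0.116%) and 1 lower gene passed. The difference between the responses, knockout minus heterozygous, passed for 0 genes in either direction in limma (0% of genes tested), with 79 higher (0.655%) and 64 lower (0.531%) under an unadjusted p of 0.05. With replicate number as a block it passed for 0 genes as well, with 374 higher (3.1%) and 250 lower (2.07%) under an unadjusted p of 0.05. With culture as a random effect 5 genes passed, all lower in the knockout-labelled response (0.0415%): Lsm12, Kbtbd4, Uck1, Dusp3 and Cox20b. Without heterozygous culture 1, limma called 0 higher genes and 1 lower gene, the pseudogene Gm20656, which was named after its values were seen. All values of Gm20656 left in that fit were 0 outside the unstimulated knockout-labelled libraries.

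Sprr2e, Zc3h12a, Nfkbiz, Cebpd, Slc5a1 and S100a9 stood higher with IL-17A in all 5 cultures. For Sprr2e the change was 1.62 in knockout-labelled and 1.29 in heterozygous-labelled libraries, a difference of 0.33 with a 95% interval of -0.05 to 0.72 (limma adjusted p = 1.00). The difference was 0.22 for Zc3h12a (-0.62 to 1.06), 0.08 for Nfkbiz (-0.42 to 0.58), 0.30 for Cebpd (-0.10 to 0.70), -0.07 for Slc5a1 (-0.53 to 0.38) and -0.24 for S100a9 (-0.84 to 0.36). All 6 intervals hold 0 in this fit, which has no replicate block. The one for S100a9 reaches past the size of its own change of 0.82. With the block in limma, only Cebpd of these 6 genes had an unadjusted p under 0.05 for the difference (0.0472, adjusted p = 0.779). Outside them, Steap4, on the fixed list, changed by 0.30 and 0.61 in knockout-labelled cultures, against 1.11, 0.89 and 0.95 in heterozygous-labelled ones. Its block p in limma was 0.0114 (adjusted p = 0.779). Csf3 and Nppb were also lower in the knockout-labelled response (block p in limma 0.0346 and 0.0267), and Cnfn and Lce3f were higher (0.0316 and 0.0357). For the chemokines Cxcl1, Cxcl2 and Cxcl5 the knockout-labelled change was lower by 0.43, 0.67 and 0.51, with intervals of -1.93 to 1.07, -4.43 to 3.08 and -2.78 to 1.77 in the fit without the replicate block, where differences between cultures stay in the spread. By culture, the change of Cxcl1 was 0.56 and 0.89 in knockout-labelled cultures and 1.73, 0.97 and 0.76 in heterozygous-labelled ones, positive in all 5. That of Cxcl2 was 0.22 and 0.71, against 1.62, 1.07 and 0.72.

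The genes with the lowest p for the difference were those that fell or were lower with IL-17A in the knockout-labelled cultures. Lsm12 had a change of -1.30 in knockout-labelled and 0.01 in heterozygous-labelled libraries, and in heterozygous-labelled libraries it was 31.6, 25.5 and 28.1 FPKM with IL-17A, against 28.3, 27.2 and 28.9 FPKM unstimulated. The difference was -1.31 (-1.65 to -0.96, limma adjusted p = 0.105). For Uck1 the change was -0.67 and -0.85 in the knockout-labelled cultures and 0.60, 0.36 and 0.53 in the heterozygous-labelled ones, a difference of -1.26 (-1.60 to -0.92, adjusted p = 0.105). Kbtbd4 gave -0.99 (-1.28 to -0.70, adjusted p = 0.137) and Dusp3 gave -0.82 (-1.13 to -0.51, adjusted p = 0.66). In all 4 genes the change was negative in both knockout-labelled cultures, and the lowest value in a heterozygous-labelled culture was -0.13. The 4 genes were chosen by their low p for this difference, so this pattern follows from the choice. Of all genes tested, 23.4% were lower in both knockout-labelled cultures. For Il1rn the change was -0.77 and -0.39 in the knockout-labelled cultures. It was 0.04, 1.70 and 1.68 in heterozygous cultures 1, 2 and 3, so heterozygous culture 1 lay between the others. For Cxcl1 and Cxcl2 the same culture had the largest change of any culture, and a relation to Bcl10 level was not tested. The difference for Il1rn was -1.72 (-2.79 to -0.66, limma adjusted p = 1.00), and without heterozygous culture 1 it was -2.28 (adjusted p = 0.172). Within libraries numbered 1 to 14, which leave heterozygous culture 1 alone, it was -0.62 (adjusted p = 0.972). Higher in the knockout-labelled response, also without passing, were Rps2, a ribosomal protein gene, by 1.37, and Rab4b, an endosomal GTPase gene, by 0.85.

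Library numbers 1 to 14 hold both knockout-labelled cultures and heterozygous culture 1, and 33 to 38 hold heterozygous cultures 2 and 3, so a difference from heterozygous cultures 2 and 3 cannot be told apart from one between these number ranges. Within numbers 1 to 14 each heterozygous-labelled group holds 1 library, so the spread comes from the knockout-labelled libraries alone. Genes named there after their values were seen were Gstp2 (difference 10.4), Zbtb9 (2.95), Gm13461 (6.75), Gm20656 (-4.94), Gm5915 (-3.40) and Rpl30-ps10 (-3.61). Gstp2 and Gm20656 were listed at 0 in whole knockout-labelled groups, as described above. Within these numbers the difference was -0.17 for Zc3h12a, -0.27 for Nfkbiz and -0.08 for Sprr2g.

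**Figure D5:**
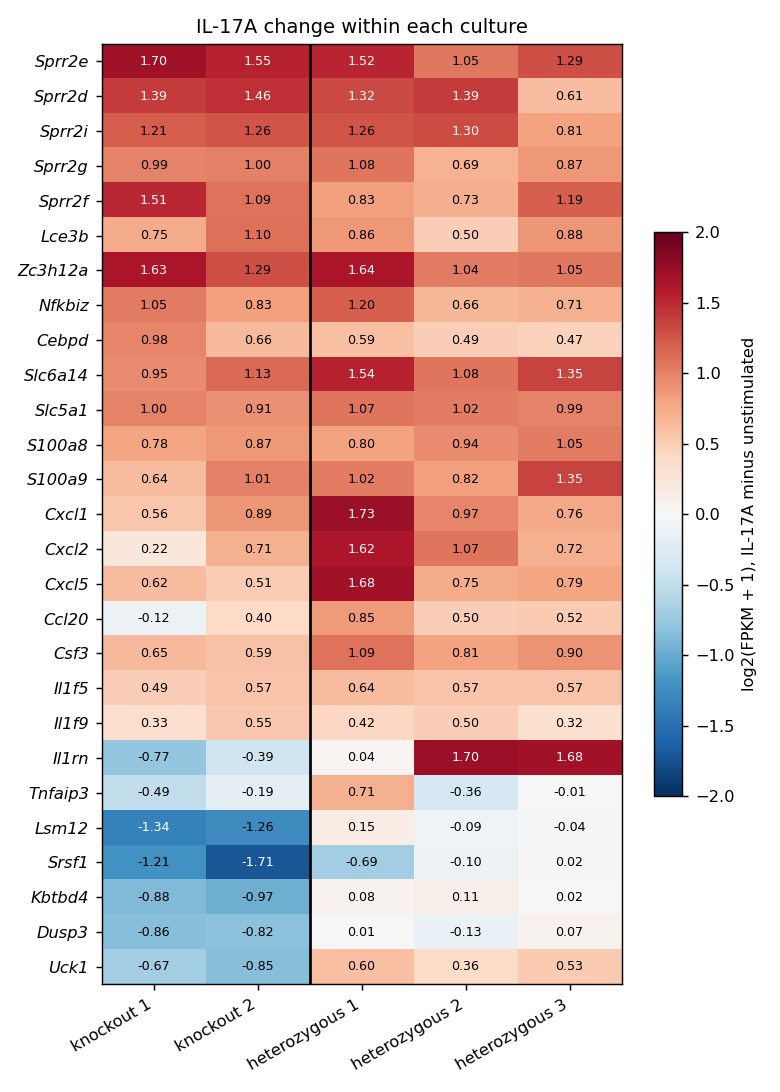
Change with IL-17A (colour and printed number, IL-17A minus unstimulated on the log2(FPKM + 1) scale) of 27 genes in each culture, knockout-labelled cultures left of heterozygous-labelled ones. The Sprr2 genes, Zc3h12a, Nfkbiz, Cebpd and Slc5a1 are higher in all 5 cultures, and Lsm12, Kbtbd4, Dusp3 and Uck1 are lower by 0.67 to 1.34 in the 2 knockout-labelled cultures.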

How the data were processed

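The authors deposited 1 FPKM value per library for each of 37991 Ensembl identifiers, in 10 libraries, made with HISAT2, SAMtools, StringTie and DESeq2 on mm10, per the submitters' processing notes; no source used here gives their versions, roles or strand setting. Of these, 32919 identifiers were matched to GENCODE M21 (GRCm38), and 17074 were 0 throughout. Depth was estimated from the steps of low FPKM values (48.6% to 55.3% lay within 0.05 of a whole fragment, against 10% for evenly spread values), giving 15.9 to 50.8 M fragments. These floors cover counting error only.

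Genes averaging 1 FPKM or more were tested on log2(FPKM + 1) with limma 3.58.1 (R 4.3.3), with its mean-variance trend and a mean for each of the 4 groups, two-sided, Benjamini-Hochberg adjusted over all genes, threshold 0.05. Fits over the 4 groups share 1 estimate of the spread. Intervals are 95%. The procedure was tested on simulated data with independent spread in each library and no culture effect, so that test cannot judge how the fit treats paired cultures.

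Deviations of same-numbered libraries from their group means correlated at 0.227 in the knockout-labelled cultures and at 0.607, 0.488 and 0.137 in the heterozygous-labelled ones. With 2 libraries in a group the deviations mirror each other, so both knockout-labelled cultures share that value. Every value was above 0.1, so changes are also given by culture. The main fit ignores these pairs, so its calls, SE and intervals are unpaired. The fit with the replicate block is an alternative, given where it changes a call. Genes were named where past the threshold, among the 12 lowest p in each direction, among up to 4 lowest p of each of 28 lists, for the difference between genotypes (5 in each direction), or on a fixed list of IL-17A genes. Genes past 1 in both cultures were named after their values were seen. Groups, lists and rules were chosen with earlier results of these data known. A list count beside the share of all genes is therefore a description only. Promoter windows are from RefSeq; Nfkbiz was not in that table.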

Additional observations from a re-analysis of the deposited data

How the results depend on the processing

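The genes past the threshold depended on the fit. The counts for the knockout-labelled response were 1 higher and 2 lower as reported. With the replicate block (paired by culture) they were 0 and 0. They were 8 and 6 with culture as a random effect, 3 higher without a filter, 1 lower at a mean of at least 5 FPKM, 0 lower with TPM scaling, 3 and 1 without both libraries of knockout culture 1, 3 higher without knockout culture 2, 0 and 0 without heterozygous culture 3, 2 and 1 in the 4 knockout libraries alone, and 5 higher there with the replicate block. Leaving out single libraries gave 0 to 3 higher and 0 to 7 lower, where a lone library is assumed to vary like the other groups. Without unstimulated knockout culture 1, limma called 2 higher and 1 lower, none of them a gene called above.

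For the difference between genotypes, 0 and 0 became 1 higher without a filter, 5 lower with culture as a random effect, 3 and 1 without knockout culture 1, 3 and 2 without knockout culture 2, 1 lower without heterozygous culture 1 or 2, and 3 and 3 in libraries numbered 1 to 14. Leaving out single libraries gave 0 to 2 higher and 0 to 4 lower. The replicate block changed no other call.

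For the 2 cultures, genes past 1 numbered 25 higher, 42 lower and 34 opposite at a pseudocount of 0.1, and 22, 47 and 39 with TPM scaling. At a mean of at least 5 FPKM, 10 were opposite and the correlation was 0.199.

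Of single genes across settings, 33 values reversed, 37 lost a call, 25 gained one and 1883 kept both direction and call; the cause was not tested. Reversed for the knockout-labelled response were Elavl1 with TPM scaling (0.0351) and without knockout culture 1 (0.00535), Bcl10 (-0.0322) and Il17rc (-0.20) without knockout culture 1, and Ccl20 (-0.12) and Defb14 (-0.0335) without knockout culture 2. Reversed for the difference were Nfkbiz without knockout culture 1 (-0.0289) or heterozygous culture 2 (-0.0167), Il1f9 without knockout culture 2 (-0.0797) or heterozygous culture 3 (-0.0194), and, in libraries numbered 1 to 14, Nfkbiz (-0.27), S100a8 (0.0303), Sprr2g (-0.0818) and Zc3h12a (-0.17). Leaving out single libraries gave ranges that cross 0 for Bcl10 (-0.0416 to 3.15), Ccl20 (-0.25 to 0.52), Cxcl5 (-0.31 to 1.44), Defb14 (-0.0336 to 0.75), Elavl1 (-0.0592 to 0.0527) and Il17rc (-0.16 to 0.33). For the difference they did so for Il1f9 (-0.11 to 0.16), Nfkbiz (-0.0396 to 0.19), S100a8 (-0.30 to 0.16), Slc5a1 (-0.17 to 0.0129) and Zc3h12a (-0.00565 to 0.49).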
